A study of Mus musculus with 2 samples.

Results

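Oxidative phosphorylation is the chain of enzymes in the inner mitochondrial membrane that passes electrons from nutrients to oxygen and uses the proton gradient this builds to make ATP. The genes described here are the nuclear genes of that chain, chosen by symbol: protein-coding genes of the GENCODE M21 annotation whose symbols begin with Nduf, Uqcr, Atp5, Cox4, Cox5, Cox6, Cox7 or Cox8, together with Sdha, Sdhb, Sdhc, Sdhd, Cycs and Cyc1. The rule gave 95 of 21829 protein-coding genes. They comprised 36 subunit genes of complex I, 8 complex I assembly factors (Ndufaf genes), 4 of complex II, 9 of complex III, cytochrome c (Cycs), 20 of complex IV with Ndufa4 and Ndufa4l2, and 17 of complex V. The rule itself uses no measured value.

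The data were DNase-seq of cerebellum tissue from 2 B6CASTF1/J males, both aged 36 days and the first-generation offspring of a C57BL/6 and a CAST parent. DNase-seq finds accessible chromatin as places where the nuclease DNase I cuts often, called peaks, and short stretches inside them that are protected from cutting, called footprints. Both animals form 1 group with no treatment and no other genotype, so no groups were compared and no test was run. They are biological replicates 1 and 2 in the labels, which list a single donor entry for the pair, so their spread may be technical. The tissue is a mixture of cell types, and fewer cells of a type with open chromatin and less open chromatin per cell cannot be told apart.

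Complex I takes electrons from NADH and complex II takes them from succinate; both pass them to ubiquinone. Complex III moves them on to cytochrome c, complex IV uses them to reduce oxygen to water, and complex V, the ATP synthase, is driven by the returning protons. Most subunits are needed in every respiring cell, while several complex IV subunits have a second form that is known from muscle, testis or low oxygen, and neurons such as the granule cells of the cerebellum draw much of their ATP from this chain.

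The authors' larger peak list held 140127 peaks in replicate 1 and 114404 in replicate 2, with 342409 and 262603 footprints. The depth of the libraries is unknown, and the deposited peak height is on a scale of its own in each library, so heights are set against others of the same animal only. Granule cell markers had a promoter peak for 6 of 6 genes in both animals, from 1.91 (Gabra6) to 27.9 (Cbln3) in replicate 1 and from 5.36 (Gabra6) to 17.1 (Cbln3) in replicate 2. The Cbln3 peak also lay in the window of Khnyn. Of the Purkinje cell markers 4 of 5 had one in both animals, and Pcp2 had none. Itpr1 had 16.0 and 12.5 in replicates 1 and 2. Pvalb had 2.54 and 1.47, Calb1 1.26 and 1.02, and Car8 0.640 and 0.405. Markers of other sources were 1 of 6 for mural cells (Kcnj8), 4 of 8 for striated muscle and 2 of 3 for brown fat. For male germ cells they were 2 of 8 in replicate 1 and 1 of 8 in replicate 2. Over all protein-coding genes a promoter peak was present for 67% in replicate 1 and 63.5% in replicate 2.

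A promoter was taken as the 1000 bp on each side of every annotated protein-coding start. In it 91 of the 95 oxidative phosphorylation genes had a peak in replicate 1 (95.8%), 88 had one in replicate 2 (92.6%), and the same 88 had one in both. Over all protein-coding genes the shares were 67% in replicate 1, 63.5% in replicate 2 and 62.9% in both. A footprint lay in the window of 88 members in both animals (92.6%), against 60.4% of all genes. A stretch at a false discovery rate of 0.05 or less lay in the window of 89 members in both animals (93.7%), against 63.7% of all genes. Counting only peaks that lay in no other gene's window, 55 members had one in both animals (57.9%), against 52.9% of all genes.

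The peaks were also tall. Where several peaks lay in a window the highest was used. The median height over members with a peak was 16.2 in replicate 1 and 10.8 in replicate 2, against 9.10 and 6.65 over all genes with a peak. Ranked against the highest promoter peaks of all genes in the same animal, members had a median percentile of 74.6 and 72.8, where the median gene stands at 50. In both animals 72 members lay above the median gene, 9 lay below it, and 7 lay above it in 1 animal only. The 9 that lay above percentile 90 in both animals were Atp5d, Atp5g2, Cox6a1, Cycs, Ndufa13, Ndufs1, Ndufv3, Uqcrfs1 and Uqcrq, and so came from complexes I, III, IV and V and from cytochrome c. The share of all genes above percentile 90 in both animals was not computed, so this count does not set members apart from other genes. The peaks of Atp5d, Ndufa13, Ndufs1 and Ndufv3 also lay in the window of another gene.

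**Figure D1:**
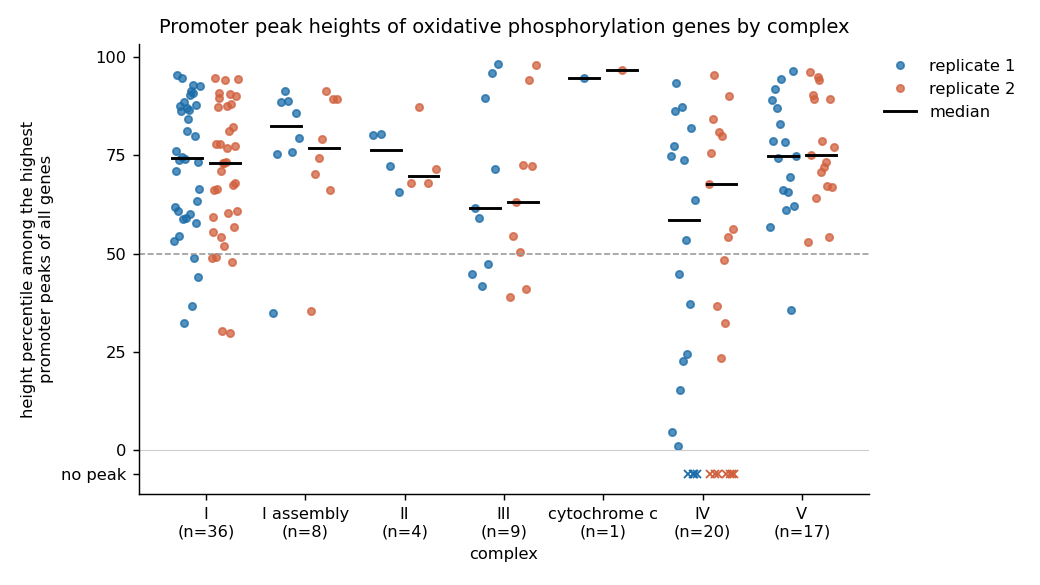
Height percentile of each member's highest promoter peak among the highest promoter peaks of all genes in the same animal (vertical axis), by complex, with replicate 1 in blue, replicate 2 in orange, black bars at the median over members with a peak, and crosses for members without a promoter peak. The dashed line is the median gene, and the crosses are all in complex IV.

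By complex, all 36 complex I subunits, all 8 assembly factors, all 4 complex II genes, all 9 of complex III, Cycs and all 17 of complex V had a promoter peak in both animals. The exceptions were all in complex IV, where 16 of 20 genes had one in replicate 1 and 13 in both. Median heights in replicates 1 and 2 were 16.2 and 10.8 for complex I, 19.5 and 11.6 for its assembly factors, 17.0 and 10.1 for complex II, 12.3 and 8.89 for complex III, 11.4 and 9.77 for complex IV and 16.4 and 11.2 for complex V. Leaving out the 8 tissue-specific forms, the 12 other complex IV genes all had a peak in both animals, and their medians were 16.2 and 10.5. In both animals the assembly factors had the highest of these medians and complexes III and IV the lowest, but the ranges of the complexes overlapped throughout.

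In complex I, the 7 core subunits that bind the flavin or iron-sulfur clusters or form the quinone site had median heights of 13.7 and 11.7 in replicates 1 and 2, and the 29 accessory subunits 16.8 and 10.8. The 2 classes were thus in opposite order in the 2 animals. By mean percentile over both animals the tallest peaks belonged to the accessory subunits Ndufa13 (28.1 and 17.6), Ndufv3 (25.1 and 17.4) and Ndufa8 (26.9 and 15.2). The peak of Ndufa13 was not at its own start but centred at -762 and -732 bp from it (negative positions are upstream), in windows shared with Tssk6 and Yjefn3. Among core subunits Ndufs1, the large iron-sulfur protein, had 23.9 and 15.6, and Ndufv1, which binds the flavin, had 15.9 and 15.3. Ndufs3 was the lowest core subunit in replicate 2, at 6.25 against 8.79 in replicate 1, and Ndufs8 was the lowest in replicate 1, at 7.61 against 9.78 in replicate 2. The lowest of all complex I genes were the accessory subunits Ndufb11 (4.60 and 3.45) and Ndufc2 (5.63 and 3.37).

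The assembly factors, which build complex I and are not part of it, had tall peaks with 1 exception. Ndufaf5, an enzyme that modifies the core subunit Ndufs7, had 22.5 and 15.9, Ndufaf7, a methyltransferase, had 20.9 and 15.1, and Ndufaf8, the partner of Ndufaf5, had 18.05 and 15.1. Ndufaf6 stood at 16.7 and 9.46. Ndufaf1, which acts early in assembly, was that exception at 5.17 and 4.28, below the median gene in both animals.

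Complex II is also an enzyme of the citric acid cycle and is the one complex encoded wholly in the nucleus. Its 4 genes lay close together: Sdhb, the iron-sulfur subunit, had 18.5 and 14.3, and Sdha, the flavoprotein, had 18.4 and 9.80. The membrane anchors Sdhc and Sdhd had 15.5 and 9.81, and 13.4 and 10.4. All 4 lay above the median gene in both animals.

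Complex III held members far apart. Uqcrq, a small subunit, had the tallest peak of all 95 members in both animals, at 32.6 and 20.3, followed within the complex by the Rieske iron-sulfur protein Uqcrfs1 (28.4 and 17.3) and the core protein Uqcrc1 (23.0 and 10.7). The Uqcrq peak covered no annotated start of the gene. It lay from -433 to -114 bp from the nearest start in replicate 1 and from -433 to -54 bp in replicate 2. Cyc1, the cytochrome that hands electrons to cytochrome c, had 7.79 and 4.84, and the second core protein Uqcrc2 had 8.41 and 5.16, both below the median gene. Cycs, the mobile carrier itself, had 27.0 and 19.0, so the carrier and the cytochrome that reduces it differed widely in peak height in each animal.

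In complex V the tallest peaks, by mean percentile over both animals, were those of Atp5g2, a gene for the membrane ring (26.5 and 17.3), Atp5b, the catalytic beta subunit (22.7 and 18.7), and the small membrane subunit Atp5mpl (29.2 and 15.1). Atp5a1, the alpha subunit that alternates with beta in the catalytic head, had 10.9 and 7.17. Atp5l, a membrane subunit, had 5.38 and 7.36, and it was the lowest of the complex in replicate 1 and Atp5a1 the lowest in replicate 2. All 3 genes for the same ring protein, Atp5g1 (19.6 and 17.8), Atp5g2 and Atp5g3 (13.6 and 10.3), were accessible in both animals, with Atp5g3 the lowest of them in each.

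Of complex IV the tallest by mean percentile were the structural subunits Cox6a1 (25.6 and 18.1), Cox8a (19.2 and 15.4) and Cox5b (21.2 and 13.4). In the isoform families of this complex the heights of broad and tissue-specific forms did not overlap in either animal. All 7 broadly used forms had a promoter peak in both animals, with median heights of 16.0 and 9.77. Of the 8 tissue-specific forms, 4 had a peak in replicate 1, and 1, Cox7a1, had one in both. These shares stand against 67% of all genes in replicate 1 and 62.9% in both.

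Among the forms known from heart and skeletal muscle, Cox6a2 had a peak of 0.222 in replicate 1 and none in replicate 2, while its broad partner Cox6a1 had 25.6 and 18.1. The Cox6a2 peak was 78 bp wide, lay inside the gene with its centre 546 bp after the start, and ranked at percentile 9.11 of all peaks of that animal. Cox8b had no peak in either animal, while Cox8a had 19.2 and 15.4. Cox7a1 had 2.24 and 2.27, against 16.0 and 12.3 for Cox7a2, a ratio of 7.16 in replicate 1 and 5.40 in replicate 2. Cox7a1 was therefore the 1 muscle form with a reproducible promoter peak, though it ranked at percentile 22.7 and 23.4 of promoter peaks. The related Cox7a2l, a factor that joins complexes III and IV, had 10.005 and 6.39, and was the 1 member whose highest peaks in the animals did not overlap: that of replicate 1 was centred at -290 bp from the start and that of replicate 2 at -20 bp. In the muscle marker list 4 of 8 genes carried a peak in each animal; Mylpf had the highest (12.8 and 8.90), in a window shared with Tbc1d10b, Tnnt3, Mb and Myl2 had between 1.04 and 1.24 in replicate 1 and between 0.464 and 0.820 in replicate 2, and Acta1, Ckm, Myh7 and Actc1 had none. The part of muscle cells in the Cox7a1 peak was not tested.

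Of the forms known from testis, Cox7b2 and Cox8c had no peak in either animal, and Cox6b2 had a peak of 1.09 in replicate 1 and none in replicate 2, although a stretch at a false discovery rate of 0.05 or less lay in its window in both. Its broad partner Cox6b1 had 7.78 and 4.49, and the ratio in replicate 1 was 7.14. Cox7b, the partner of Cox7b2, had 2.61 and 3.75 and was the lowest of the broad forms in both animals. Germ cell markers were at 0 peaks for Acrv1, Prm1, Prm2, Tnp1, Ldhc and Akap4, while Dazl had 11.8 and 6.95 and Ddx4 had 0.244 in replicate 1 only.

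Of the forms known from low oxygen and from lung or vessel cells, Cox4i2 had 0.396 in replicate 1 and none in replicate 2, against 16.3 and 9.77 for Cox4i1. The Cox4i2 peak was 89 bp wide with its centre 314 bp after the start. Ndufa4l2 had no promoter peak and no stretch at a false discovery rate of 0.05 or less in either animal, while Ndufa4 had 12.9 and 7.72. Yet Ndufa4l2 had 12 and 10 peaks within 10000 bp of its gene body, outside all promoter windows, and none of them lay inside the gene body. Counting gene body and flanks, only Ndufaf2 (9 and 13) equalled that sum over both animals among the members. In the mural cell list 1 of 6 genes, Kcnj8, had a promoter peak (0.851 and 0.415), and Rgs5, Pdgfrb, Abcc9, Vtn and Higd1b had none.

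**Figure D2:**
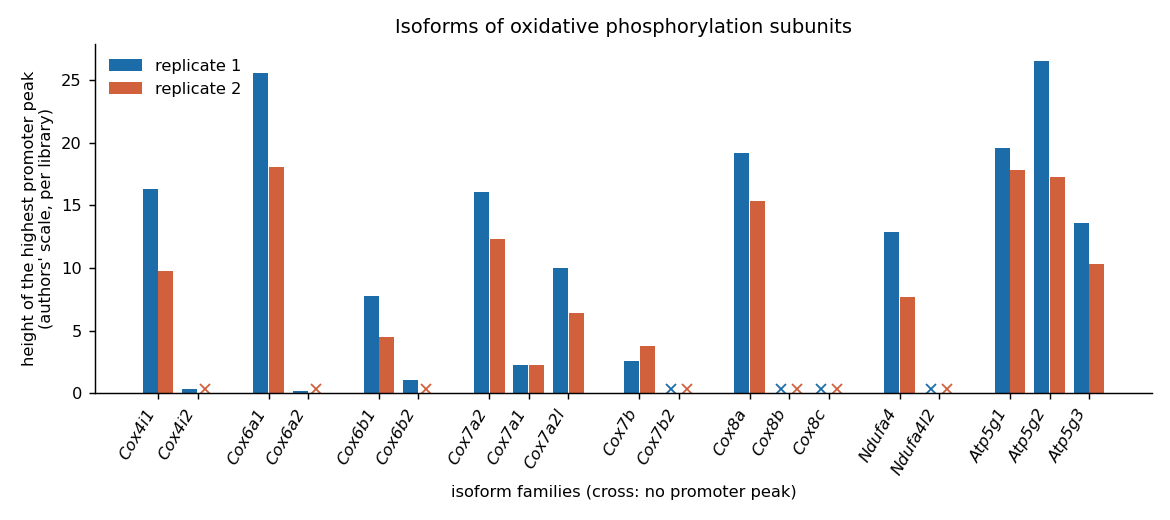
Height of the highest promoter peak on the authors' scale (vertical axis) for each isoform gene, grouped by family, with replicate 1 in blue, replicate 2 in orange and a cross where no promoter peak was present. In each family with a tissue-specific form the broad form is the taller in both animals, and the 3 genes of the ATP synthase ring protein on the right are all tall.

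The sequences before the starts of the muscle pairs show one way in which the forms differ. CpG dinucleotides are rare in most of the mouse genome and dense at promoters of broadly used genes. Given here are the 120 bases before the representative start of each gene on mm10, read 5′ to 3′ along the gene's own strand, with CpG in capitals.
Cox6a1, chr5:115348982-115349101, minus strand: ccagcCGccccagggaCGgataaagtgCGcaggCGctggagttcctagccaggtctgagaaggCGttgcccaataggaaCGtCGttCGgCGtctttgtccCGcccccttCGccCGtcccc
Cox6a2, chr7:128206388-128206507, minus strand: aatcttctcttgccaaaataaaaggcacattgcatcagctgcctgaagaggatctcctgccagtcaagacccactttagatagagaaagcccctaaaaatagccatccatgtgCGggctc
Cox7a2, chr9:79759879-79759998, minus strand: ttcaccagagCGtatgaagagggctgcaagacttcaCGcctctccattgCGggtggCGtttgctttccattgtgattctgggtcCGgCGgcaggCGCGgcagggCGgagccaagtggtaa
Cox7a1, chr7:30184024-30184143, plus strand: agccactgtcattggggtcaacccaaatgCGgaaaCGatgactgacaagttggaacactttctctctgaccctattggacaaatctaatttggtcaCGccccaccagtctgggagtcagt
Cox8a, chr19:7217617-7217736, minus strand: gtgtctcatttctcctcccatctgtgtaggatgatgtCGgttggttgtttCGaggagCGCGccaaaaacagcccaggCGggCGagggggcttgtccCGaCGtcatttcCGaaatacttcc
Cox8b, chr7:140900447-140900566, minus strand: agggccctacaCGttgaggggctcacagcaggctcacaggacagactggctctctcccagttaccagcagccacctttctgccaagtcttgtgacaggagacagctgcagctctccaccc
Cox6a1 held 12 CpG in this stretch and Cox6a2 held 1. Cox7a2 held 9 and Cox7a1 held 3, and Cox8a held 9 and Cox8b held 1. The 3 muscle forms thus had fewer CpG than their broad partners in every pair.

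Over the 300 bases from 250 before to 50 after the start, the 8 tissue-specific forms had a median of 8 CpG and the 7 broad forms 18. Members as a whole had a median of 17 and all genes 12, but members with a peak in both animals had 18 and all genes with a peak in both had 20. When each gene was ranked only among genes of its own CpG class (5 classes of about equal size), members with a peak had a median percentile of 76.8 and 75.6 in replicates 1 and 2, close to the 74.6 and 72.8 without that step. The 300 bases are those of the representative start, and the highest peak overlapped them in both animals for 78 of the 88 members with a peak in both (88.6%), against 70.2% of all such genes. In the other 10 the CpG count belongs to bases other than those of the peak.

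**Figure D3:**
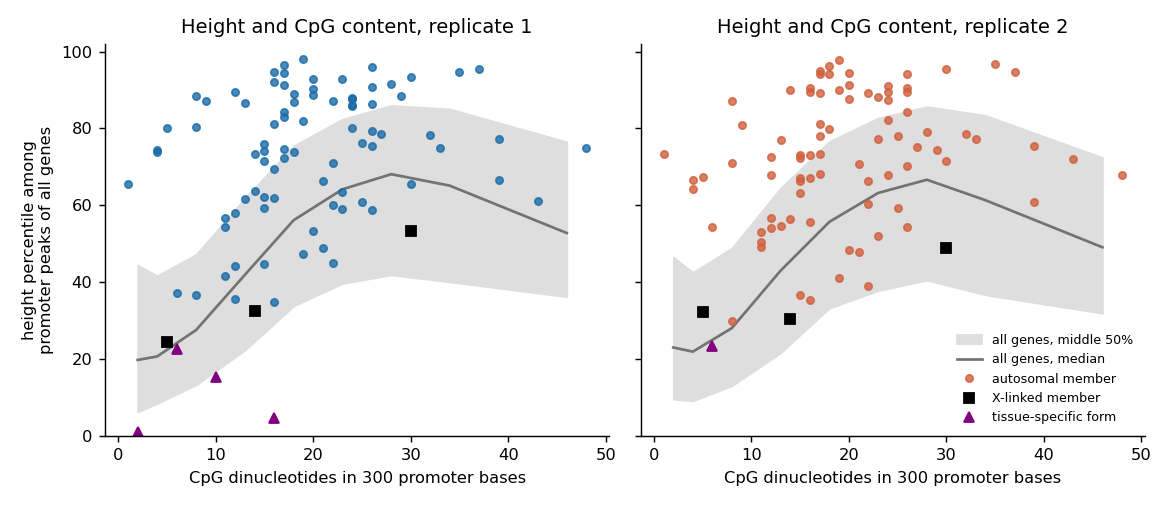
Height percentile among the promoter peaks of all genes (vertical axis) against the number of CpG in the 300 promoter bases (horizontal axis), for members with a peak, with the median and middle 50% of all genes in grey, 1 panel per animal. Most autosomal members lie above the grey line at their CpG number, while the tissue-specific forms (purple triangles) and the X-linked members (black squares) lie within or below the grey band.

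In these male animals the X chromosome is present in 1 copy. The 3 X-linked members, Ndufa1 (9.99 and 6.47), Ndufb11 (4.60 and 3.45) and Cox7b (2.61 and 3.75), had median heights of 4.60 and 3.75, against 16.3 and 10.8 for autosomal members with a peak. All X-linked genes with a peak had medians of 3.80 and 3.08 and all autosomal genes 9.41 and 6.89. The low place of these 3 members thus went with a low place of the whole chromosome, and the part of copy number was not tested.

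The peaks of most members lay on their starts. The share of members with a peak at a given base was highest at -20 bp from the representative start, at 84.2% in replicate 1 and 82.1% in replicate 2, against highest shares of 46.9% and 45.8% for all genes, at -40 bp. At 200 bp downstream fewer members than genes in general had a peak, 4.21% and 8.42% against 14.6% and 12.8%. At 500 bp downstream the shares were 15.8% and 12.6% against 15.3% and 14.5%. At 1000 bp downstream they were 3.16% and 1.05% against 7.50% and 7.04%. Upstream, at -500 bp, the shares were 5.26% in both animals against 7.89% and 7.31%. At -720 bp members were above genes in general, with 12.6% and 10.5% against 5.98% and 5.82%. The highest peak covered an annotated start for 76 of 91 members in replicate 1 (83.5%) and 77 of 88 in replicate 2 (87.5%), against 66.9% and 69.6% of all genes with a peak. The highest peaks of both animals overlapped for 87 of 88 members (98.9%) and for 95.2% of all genes. The median peak was 200 bp wide in both animals.

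**Figure D4:**
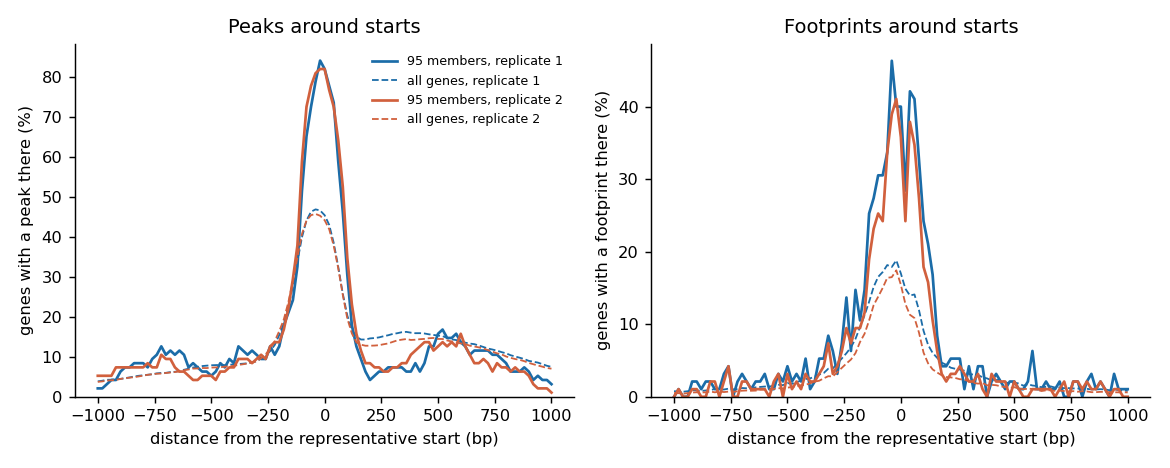
Share of genes with a peak (left) or a footprint (right) at each distance from the representative start, with members as solid lines and all genes as dashed lines, replicate 1 in blue and replicate 2 in orange. Members reach 84.2% and 82.1% for peaks just upstream of the start and 46.3% and 41.1% for footprints, and at 200 bp downstream the peak share of members is below that of all genes.

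Footprints were densest in the same place, reaching 46.3% of members in replicate 1 and 41.1% in replicate 2, against 18.8% and 17.4% of all genes. Every one of the 88 members with a peak in both animals had a footprint inside its highest peak in both, as did 95.3% of all genes with a peak in both. A member's window held a median of 8 footprints in replicate 1 and 7 in replicate 2, the same as for all genes with a peak. Per 100 bp of the highest peak the members had 2.27 and 2.18, against 1.94 and 1.86 for all genes. All genes within the middle height range of the members had 2.27 and 2.21, close to the member values. The member values cover members of every height, so the 2 sets are only roughly alike in height.

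The members with the most footprints were Atp5j, which encodes coupling factor 6 (20 and 17), Uqcrh, the hinge protein of complex III (16 and 19), Ndufa11 (17 and 14), Ndufa13 (14 and 17) and Atp5d, the delta subunit (17 and 12). The window of Atp5j overlaps that of Gabpa on the other strand. Gabpa encodes the DNA-binding part of nuclear respiratory factor 2, an ETS factor known to act at genes of this chain. The highest peak in both windows was the same, 12.1 and 10.5, centred 573 and 543 bp inside Atp5j, and the peak that covers a start of Atp5j had 7.69 and 5.40.

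Shared promoters were common. For 34 of the 88 members with a peak in both animals (38.6%) the highest peak also lay in the window of another protein-coding gene in both, against 18% of all genes with a peak in both. None of the partners was itself a member. For 28 of the 34 the nearest starts were head to head, on opposite strands and pointing away from each other. Their median distance was 91.5 bp, with a range from 3 to 622 bp. The share of head-to-head starts among all genes with a shared peak was not computed, so this count does not set members apart. By complex the 34 comprised 15 genes of complex I, 4 assembly factors, 3 of complex II, 3 of complex III, 2 of complex IV and 7 of complex V. Sdhd and Timm8b had starts 98 bp apart, Atp5a1 and Haus1 70 bp, Cox4i1 and Emc8 101 bp, and Ndufs1 and Eef1b2 3 bp. At such a promoter the peak cannot be assigned to one gene. Members with a shared peak had median heights of 16.3 and 10.3, and those with a peak of their own 17.0 and 10.9.

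The letters of binding sites of factors known from this pathway were searched on both strands of the 300 promoter bases of every gene. A match is a description of the sequence and not of binding. The NRF1 letters GCATGCGC, of nuclear respiratory factor 1, were present in 12 members (12.6%), against 3.72% of all genes and 4.97% of genes with a promoter peak in both animals. A longer form with GC added at the 5′ end reads the same on both strands, so each occurrence counts as 2 of the shorter one, and it was present in 6 members (6.32%) against 1.21% and 1.86%. The YY1 letters AAGATGGC were present in 10 members (10.5%) against 3.06% and 4.25%. The ETS letters CCGGAAG were present in 17 (17.9%) against 11.2% and 16.2%, so members were close to other accessible genes. The SP/KLF letters GGGCGGGG went the other way, in 13 members (13.7%) against 23.2% and 32.9%. The NFY letters CCAATNAG were in 12 (12.6%) against 8.51% and 9.52%, the CREB letters TGACGTCA in 5 (5.26%) against 2.48% and 3.38%, and the ZNF143 letters, ACTACAA followed by any base and TCC, in 4 (4.21%) against 1.51% and 2.30%.

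In the 300 promoter bases no set of letters was shared by most members. At least 1 of the NRF1, ETS, YY1 and SP/KLF letters was present in 43 of 95 (45.3%), against 34.9% of all genes, at least 2 in 9 (9.47%) against 5.80%, and 3 or more in none, against 0.417% of all genes with 3. These combined shares were not computed for genes with a promoter peak in both animals. Of those genes 32.9% held the SP/KLF letters and 16.2% the ETS letters, so the members are not set apart from accessible genes here. By complex the NRF1 letters fell in 2 of complex I, 2 assembly factors, Sdhb, Uqcr11, Cycs, 2 of complex IV and 3 of complex V. The YY1 letters fell mostly in complex I, in 6 of its genes, and lay just after the start, with a median position of 25.5 bp in members and -3 bp over all genes.

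For each set of letters except YY1, a site with its centre in a peak and in a footprint in both animals is shown, taken from the member with the highest mean percentile among those with such a site and, where it held several, the first by coordinate. Each is read along the member's strand on mm10 with the letters in capitals. The bases printed do not match the bounds of the footprints. A footprint ends inside the letters for ERR in Uqcrq in replicate 2 and for ZNF143 in Atp5o in replicate 1.
NRF1 long form, Ndufa13, chr8:69903321-69903350, minus strand: aatcgaggatGCGCATGCGCtctccagcaa
ETS, Cox6a1, chr5:115348957-115348986, minus strand: tccccatttccgCTTCCGGcgcgccggtgt
SP/KLF, Uqcrq, chr11:53431062-53431129, minus strand: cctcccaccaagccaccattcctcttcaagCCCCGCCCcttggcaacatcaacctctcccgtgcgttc
NFY, Ndufa6, chr15:82354325-82354354, minus strand: gaggcttccagCCAATCAGagagccctagt
ERR, Uqcrq, chr11:53430915-53430981, minus strand: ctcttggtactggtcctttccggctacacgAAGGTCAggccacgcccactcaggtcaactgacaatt
CREB, Cycs, chr6:50566720-50566749, minus strand: aggccagagggTGACGTCAcgcacgtccac
ZNF143, Atp5o, chr16:91931696-91931725, minus strand: gcaggtacggACTACAACTCCcagcatgca
The site in Cox6a1 lies 10 bp after its start. The site assigned to Ndufa13 lies at -777 bp from its start, in the peak it shares with Tssk6 and Yjefn3. The CREB letters of Cycs lie at -196 bp. Of the NRF1 letters within member peaks, 23 of 26 had their centre in a footprint in replicate 1 and 23 of 24 in replicate 2. Here each site of the long form counts as 2, and 9 and 8 such sites lay in member peaks. The shares were 80.8% and 83.3% over all genes. The ETS letters were in a footprint in 19 of 30 and 16 of 31 cases, against 41.6% and 41.1% over all genes. The SP/KLF letters were in 22 of 28 and 23 of 28, against 65.7% and 62.9%, and the YY1 letters in 8 of 17 and 10 of 18 (47.1% and 55.6%), against 43.5% and 41.4%. The shares over all genes were not matched for peak height, and member peaks were taller.

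The letters AAGGTCA, of the estrogen-related receptors (ERR), which are nuclear receptors known for control of energy metabolism, were also searched in 1000 bp on each side of the representative start, where they were the most frequent of the letters in members. In the 300 promoter bases they were in 10 members (10.5%), against 3.95% of all genes and 2.91% of genes with a promoter peak in both animals. In the wider window they were in 58 members (61.1%), against 28.8% and 26.7%, and 23 members held at least 2. The same letters in reverse order, ACTGGAA, which have the same base composition, were in 26 members (27.4%), against 30.8% and 28.8%. The difference was larger downstream of the start. There 50 members (52.6%) held AAGGTCA within 1000 bp after the start, against 12.98% of genes with a peak. Before the start 21 members (22.1%) held it, against 16.2%. From -200 to 0 bp there were 5 occurrences in members, 5.26 per 100 genes, against 1.91 in genes with a peak. Per 100 genes there were 24.2 occurrences between 200 and 400 bp after the start in members and 2.26 in genes with a peak.

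**Figure D5:**
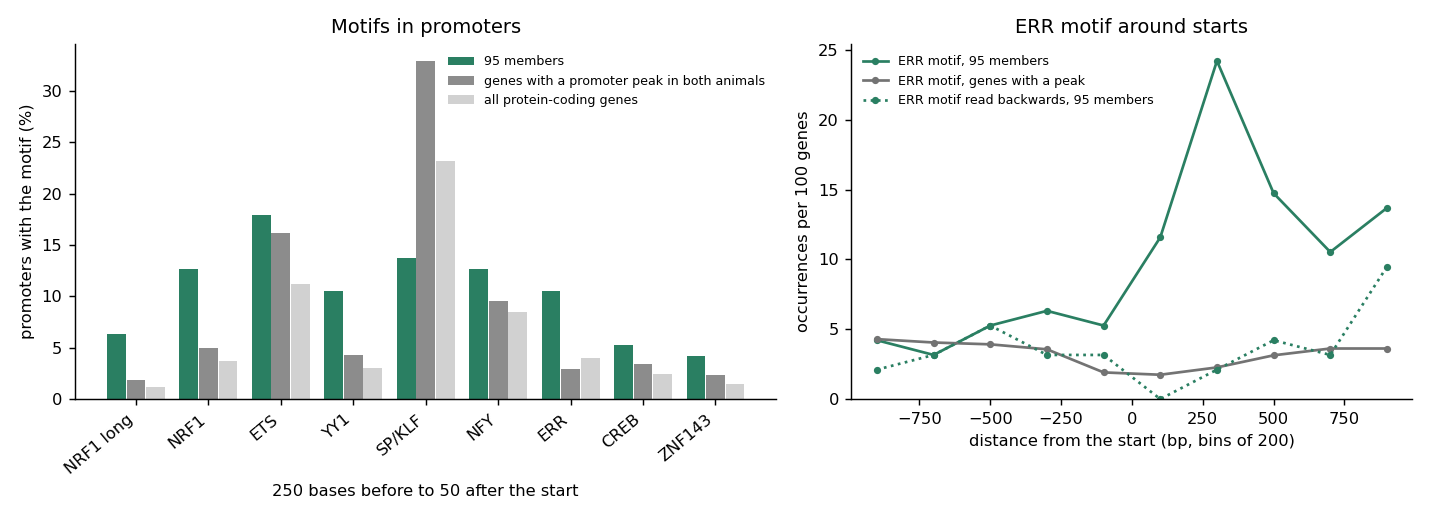
Left: share of promoters that hold each set of letters in the 300 promoter bases (vertical axis, %), for the 95 members, for genes with a promoter peak in both animals and for all protein-coding genes. Right: occurrences of the ERR letters per 100 genes (vertical axis) in bins of 200 bp around the representative start; the members reach 24.2 between 200 and 400 bp after the start, while genes with a peak stay between 1.74 and 4.29 and the reversed letters in members between 0 and 9.47.

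The ERR letters were spread over the chain. They lay in the wider window of 17 of 36 complex I genes, 3 of 8 assembly factors, 4 of 4 of complex II, 8 of 9 of complex III, Cycs, 12 of 20 of complex IV and 13 of 17 of complex V, and in 3 of the 8 tissue-specific forms. A longer form, TCAAGGTCA, was searched after the shorter letters had been seen. It was in 16 members (16.8%), against 4.16% of all genes and 4.16% of genes with a peak, and 11 of the 16 held it after the start. These were 5 genes of complex I, 2 assembly factors, 2 of complex II, 3 of complex IV and 4 of complex V. The longer form was in 0 of 9 complex III genes, not in Cycs, and in 0 of the 8 tissue-specific forms. Given here are sites in 6 members, chosen to span complexes I, II and V and an assembly factor, 30 bases each on mm10, read along the gene's strand, with the 9 letters in capitals, which appear as TGACCTTGA where the match is on the other strand.
Ndufv2, chr17:66101170-66101199, minus strand: ccctaacttagTCAAGGTCAggaaggcgat
Ndufaf5, chr2:140170993-140171022, plus strand: cccgactgtgTGACCTTGAgaagcttcact
Sdhb, chr4:140961718-140961747, plus strand: cagggagaggTCAAGGTCAtaggatgagcg
Sdhd, chr9:50603795-50603824, minus strand: gggttgtagagTGACCTTGAgccctcgaaa
Atp5b, chr10:128083486-128083515, plus strand: cttctccccgTGACCTTGAgcttgggccta
Atp5g3, chr2:73911360-73911389, minus strand: ttgttacaaagTGACCTTGAgcgtcttccc
The sites lie 375 bp after the start in Ndufv2, 358 in Ndufaf5, 529 in Sdhb, 3 in Sdhd and 227 in Atp5b, and at -48 bp in Atp5g3. In Sdhd the site touches an annotated exon, and in the other 5 it does not.

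Most ERR letters lay outside the accessible stretch. Around all starts of the members there were 107 occurrences, of which 14 had their centre in a peak in replicate 1, 16 in replicate 2 and 12 in both. Of those in peaks 3 of 14 and 2 of 16 were in a footprint, against 9.49% and 9.89% over all genes. The sites of Sdhd and Atp5g3 given above were in a peak in both animals and in a footprint in neither, that of Sdhb was in a peak in replicate 1 only, and those of Ndufv2, Ndufaf5 and Atp5b were in none. Of the occurrences 50 touched an annotated exon. The factors themselves had accessible promoters: Esrra had the tallest peak of the regulators (39.6 and 24.1), while Esrrg had 4.89 and 3.55 and Esrrb 2.54 and 1.98.

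The other genes of the pathway were accessible to a like extent. Of 53 assembly and related factors outside the symbol rule, 51 carried a peak at their promoter in each animal, against 62.9% of all genes, with median heights of 14.7 and 9.96. The exceptions were Sdhaf1, an assembly factor of complex II, and Cyct, the testis form of cytochrome c, while Cycs had 27.0 and 19.0. All 15 regulators had a peak in both animals. Among DNA-binding factors Yy1 had 24.4 and 14.9, Creb1 25.8 and 14.9, Sp1 19.8 and 18.3 and Nrf1 15.8 and 9.35, and Gabpb1, the partner of Gabpa, 8.03 and 5.17. Tfam, which packages mitochondrial DNA, had 19.0 and 10.8, Tfb2m 25.1 and 15.9, and the mitochondrial RNA polymerase Polrmt 16.9 and 12.4. Of the coactivators Ppargc1b had 9.90 and 5.83, Pprc1 8.80 and 8.87, and Ppargc1a, the best known inducer of the chain, 0.477 and 0.435, the lowest of the list.

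Peaks away from promoters were few. In the gene body and 10000 bp on each side, outside all promoter windows, members had a median of 2 peaks in replicate 1 and 1 in replicate 2, the same as all genes, although member genes were shorter, with a median length of 7284 bp against 17384. No distal peak was present in either animal for 20 members (21.1%), among them Cycs, Cox7a2l and Atp5g3, against 24.2% of all genes. After Ndufa4l2 and Ndufaf2 the most were found at Atp5b (9 and 7), Atp5h (6 and 10) and Ndufa13, whose 14 in replicate 1 stood against 1 in replicate 2.

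Between the animals the order of members was broadly kept. Over the 88 members with a peak in both, Spearman's correlation of heights was 0.875, given as a description across genes that share both libraries, and over all 13733 genes with a peak in both it was 0.976. The percentile among promoter peaks moved by a median of 5.76 points, and 35 of 88 members were higher in replicate 2. The largest moves, named after their values were seen, were those of Ndufs8 (44.2 to 67.9 from replicate 1 to 2), Atp5l (35.6 to 54.1) and Ndufb10 (88.5 to 70.9). With 1 library per animal the spread within an animal is unknown, and members that differ by less than such moves are not ordered by these data.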

How the data were processed

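DNase-seq was measured in cerebellum of 2 animals. Coordinates are on mm10 and each animal has files of its own, per the labels. The aligner and callers used were not given in the sources used here. The authors deposited 2 peak lists per animal, and the larger was used. Peak height is a signal value that the authors deposited on an unstated scale, so no depth, interval or floor was computed. The deposited false discovery rates and the footprint entry of 0.01, the same in every row, are p-value types of measure: stretches at or below 0.05 were merged, and footprints were used by position only.

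Peaks were assigned to 1000 bp on each side of all protein-coding starts of GENCODE M21, with an overlap of 1 bp. For 1 symbol with several gene entries, the best supported was kept. Sequences are from RefSeq's GRCm38.p6. Python 3.11.15, pandas 2.3.3, pysam 0.24.0 and bedtools 2.31.1 were used. The overlap step was tested on simulated data. No p-value was computed, since 1 group of 2 animals allows no test.

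Genes named are members without a peak in an animal, the isoform families, in each complex the 3 tallest and 2 lowest by mean percentile in their own list, the 5 with the most footprints and the 5 with the most distal peaks, partners of shared peaks, and regulators; others were named after their values were seen. The YY1 example sequence is not reported here. The members and lists were chosen with earlier results of these data known. Alternatives were the smaller peak list, other windows, starts and overlaps, taller peaks, unshared peaks and 1 animal; peaks that cover a start, members without the tissue-specific forms, the longer ERR letters and the reversed letters were added after the data were seen.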

Additional observations from a re-analysis of the deposited data

How the results depend on the processing

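The depth of both libraries is unknown, heights are the authors' own scale, and a peak at a shared promoter belongs to no single gene. The count of 88 members with a promoter peak in both animals (92.6% against 62.9% of all genes) was 87 to 90 with the smaller list, windows of 500 or 2000 bp, 1 start per gene, peaks above the median height or midpoints. Limited to peaks that cover a start it was 78 (82.1% against 48.1%). Limited to peaks in no other gene's window it was 55 (57.9% against 52.9%), with 21 for complex I, 4 for its assembly factors, 1 for complex II and 11 for complex V; here the construction removes shared promoters. The median percentile in the own list was 95.2 with the smaller list, against 96.8. Tissue-specific forms with a peak numbered 3 with windows of 2000 bp, where Cox6a2 and Ndufa4l2 were gained, and 1 to 4 when either animal was left out, against 1. With 1000 bp on each side, which searches more bases, members with the letters numbered 10 for the long NRF1 form, 21 for NRF1 and 35 for ETS. They numbered 29 for YY1, 34 for SP/KLF, 21 for NFY, 58 for ERR and 8 for CREB. Member shares were above those of genes with a promoter peak in both animals for the long NRF1 form (10.5% against 2.796%) and NRF1 (22.1% against 9.67%). The same held for YY1 (30.5% against 14.5%), ERR (61.1% against 26.7%) and CREB (8.42% against 5.37%). They were close for ETS (36.8% against 33.7%) and NFY (22.1% against 21.5%), and lower for SP/KLF (35.8% against 54.99%). Distal peaks per member, as the mean of the medians of both animals, were 0 in gene bodies alone and 5.5 with 50000 bp on each side, against 1.5. The other 103 recomputed values moved by less than the spread between animals or stayed within 1.5 times the count. For the median percentile and the footprints, leaving out 1 of 2 animals cannot move the mean by more than that spread. Those values therefore say nothing about stability. No paired analysis was possible because both animals belong to 1 group.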
